A study of Mus musculus with 6 samples.

Results

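The amino acid transporter families were compared in the livers of mice that had received either of 2 adenoviruses. Some of their members carry other substances, such as purine bases (Slc43a3) and creatine (Slc6a8). Members were the probe sets whose single gene symbol begins with Slc1a, Slc3a, Slc6a, Slc7a, Slc36a, Slc38a or Slc43a. A probe set is a set of short array probes that gives 1 signal, and some can match several transcripts. The rule took 67 of 22626 probe sets, which stand for 43 of 12393 genes: 6 of Slc1a, 2 of Slc3a, 15 of Slc6a, 13 of Slc7a, 6 of Slc38a and 1 of Slc43a. No probe set here is named for an Slc36a gene, and Slc36a1, Slc38a9, Slc43a1 and Slc43a2 were not analysed here. The rule used names and no measured value. All 6 animals were obese male KK/H1J mice of 12 to 14 weeks and about 35 g, a strain in which type 2 diabetes and obesity have many genetic causes, and all were fed freely. The 3 BPD mice (numbers 23, 28 and 36) had been given Ad-BPD, which encodes a bisphosphatase-deficient version of the dual enzyme that both makes and breaks down the glycolytic activator fructose-2,6-bisphosphate, and the 3 GFP mice (22, 29 and 31) had been given Ad-GFP, both by the tail vein at the same stated dose. Livers were taken after 7 days and 1 array was run per mouse. Both groups carry an adenovirus and no uninjected mice are among the samples, so the comparison is between viruses. The sources used here do not give the promoter that drives either transgene.

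The liver takes up glutamine, alanine, glycine and serine from portal blood and uses them for glucose, urea and glutathione. Sodium-coupled carriers of the Slc38 family bring glutamine and alanine into hepatocytes, Slc1 carriers move glutamate, aspartate and small neutral amino acids, and Slc6 carriers use sodium and chloride to take up osmolytes and transmitters such as taurine, betaine, glycine and GABA. Slc7 proteins are of 2 kinds, carriers of arginine and lysine that work alone and light chains that must pair with a heavy chain, Slc3a1 or Slc3a2, to reach the membrane.

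Signals below are the deposited intensities on a linear scale, and log2 differences are BPD minus GFP of log2(signal + 16.3) after each array was centred on its median, with the standard error (SE) of limma's fit. A gene rose or fell where its limma p, adjusted over all 13575 probe sets tested, was under 0.05. The median signal was 175 to 197 on BPD and 136 to 158 on GFP arrays, so centring lowers every BPD value relative to GFP. The median of the genes tested, which leave out dim probe sets, lay at -0.22 after centring, at 0.08 when the deposited scaling was kept and at -0.06 after quantile normalization. Array BPD 36 correlated with the GFP arrays at 0.901 to 0.942 and BPD 23 and 28 did so at 0.851 to 0.901. The ratio of 3' to 5' signal of Gapdh was 0.735 to 0.863 in BPD and 0.785 to 0.900 in GFP livers. That of actin was 1.75, 1.23 and 1.26 in BPD livers 23, 28 and 36 and 1.40 to 1.59 in GFP livers. The labelled tissue was borne out by all 14 hepatocyte markers, none at 0, with summed signals of 152733 to 166331 in BPD and 218081 to 235243 in GFP livers. In such pieces of tissue, fewer cells of a type and less RNA per cell cannot be told apart.

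Carriers of glutamine (Slc38a3), betaine (Slc6a12), glutamate (Slc1a2) and taurine (Slc6a6) were lower in BPD livers, and Slc7a7, a light chain for arginine and lysine, and Slc43a3, a carrier of purine bases, were higher. Of the 43 genes, 21 had a probe set bright enough to test (the filter asks for a mean above a signal of 98.8), and 8 of these fell (38.1%, beside 22.2% of all 8151 genes tested) and 2 rose (9.52%, beside 8.75%). The remaining 11 did not pass. The 8 that fell were Slc6a12, Slc1a2, Slc38a3, Slc38a4, Slc6a6, Slc6a13, Slc6a9 and Slc3a1, and the 2 that rose were Slc7a7 and Slc43a3. Falls were called under all 3 scalings for Slc6a12, Slc1a2, Slc38a3, Slc38a4 and Slc6a6, 5 of 21 members, beside 9.24% of all genes. Rises were called under all 3 scalings for Slc7a7 and Slc43a3, beside 8.42% of all genes. The 5 that fell throughout were also called under every other alternative that was run on them, with any 1 mouse left out included. The deposited scaling gave 5 risen (beside 17.2% of all genes) and 5 fallen members (beside 11.1%), the additional risers being Slc1a5, Slc6a8 and Slc7a8. Quantile normalization gave 2 risen (beside 12.7%) and 6 fallen members (beside 13.0%). Neither of the 2 rises was called when BPD mouse 23, BPD mouse 28 or GFP mouse 31 was left out, although 3, 2 and 4 members had an upward unadjusted limma p under 0.05. The share of all genes called with a mouse left out was not counted. Counted by probe set, 11 of 30 tested fell (beside 20.3% of all) and 2 rose (beside 8.29%), and under the deposited scaling 5 fell (beside 9.68%) and 6 rose (beside 16.7%). With quantile normalization 6 fell (beside 12.1%) and 2 rose (beside 12.5%). After centring, all BPD livers lay below all GFP livers in 9 of the 21 genes (beside 36.4% of all genes) and above them in 4 (beside 13.3%).

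**Figure D1:**
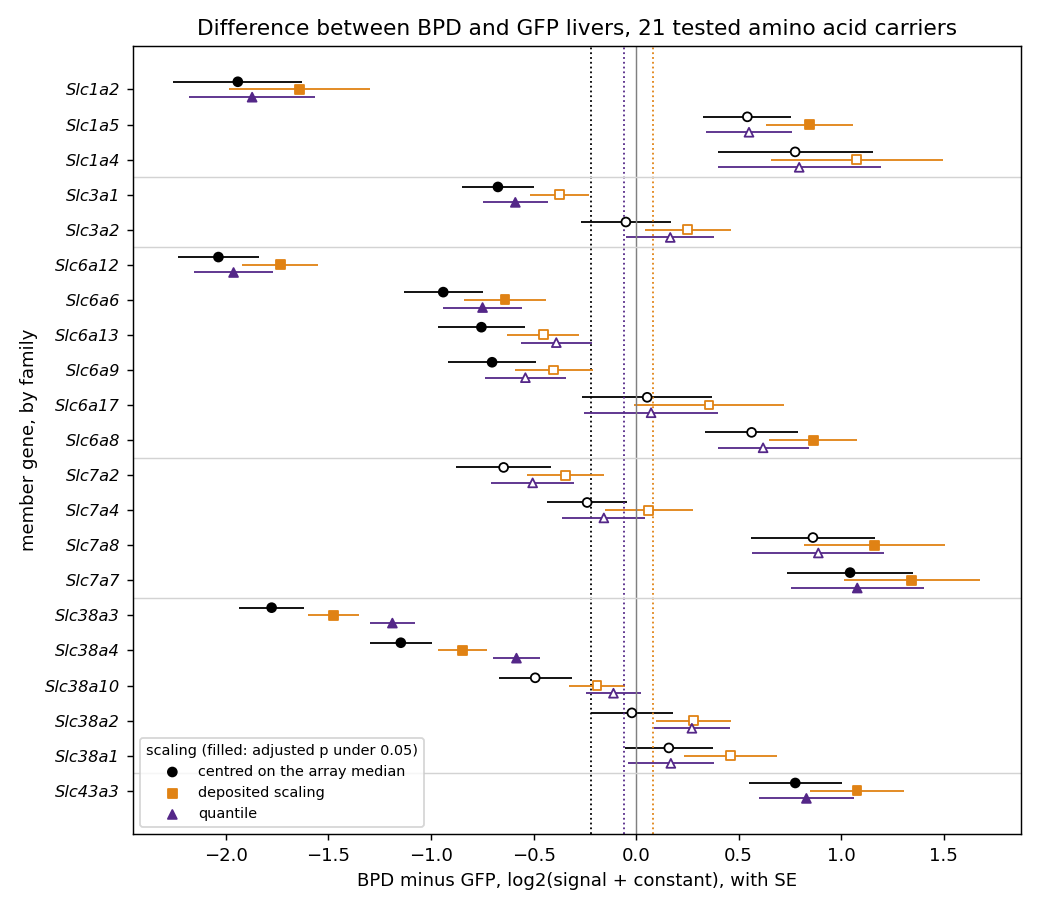
BPD minus GFP difference of log2(signal + constant) for the 21 tested carriers, grouped by family and drawn with its SE under each of 3 scalings between arrays. Filled symbols have a limma adjusted p under 0.05 and dotted lines mark the median of all genes under each scaling, at -0.22, 0.08 and -0.06; Slc6a12, Slc1a2, Slc38a3, Slc38a4 and Slc6a6 lie left of these lines with filled symbols throughout.

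The family medians lay on both sides of that of all genes. The median difference of the 6 tested Slc6a genes was 0.51 below that of all genes (relative median -0.51) and that of the 5 tested Slc38a genes was 0.27 below (-0.27). The 3 tested Slc1a genes had a median 0.76 above that of all genes, since Slc1a4 and Slc1a5 lay above it and Slc1a2 far below it, and the 4 tested Slc7a genes had a median 0.53 above. The value for Slc1a rests on few genes, with Slc1a4 tested only through its BPD signals. It was 0.13 without the filter, -1.70 with the filter at the median, which left 1 gene, and 0.48 without GFP mouse 22. Over all 21 members the median was -0.24 beside -0.22 for all genes. With quantile normalization the relative median of Slc38a was -0.05, and without the filter on dim probe sets that of the 13 Slc7a genes was -0.01. These medians describe the families and were not tested.

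The Slc38 family holds the main sodium-coupled glutamine and alanine carriers of the liver. Slc38a3, the system N carrier SNAT3 that moves glutamine, histidine and asparagine, had signals of 4434, 4079 and 5367 in BPD livers 23, 28 and 36 and of 12303, 13305 and 12851 in GFP livers 22, 29 and 31. Every BPD liver lay far below every GFP liver, and within each group the livers were close together. The BPD mean of 4626 ± 665 stood against a GFP mean of 12820 ± 502 (SD, n = 3 each), a ratio of GFP to BPD of 2.77. The log2 difference was -1.78 ± 0.16 (limma adjusted p = 3.2e-04), and it was -1.48 under the deposited and -1.19 under the quantile scaling.

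Slc38a4, the system A carrier SNAT4 that is abundant in hepatocytes and takes up alanine and other small neutral amino acids, had signals of 5010, 5083 and 6145 in BPD livers and 8996, 9770 and 10383 in GFP livers. The groups again did not overlap, and BPD 36 was the highest of its group in both Slc38a3 and Slc38a4. The log2 difference of Slc38a4 was -1.15 ± 0.15 (limma adjusted p = 0.0011), and -0.85 and -0.58 under the deposited and quantile scalings. Its other probe set fell by 0.74 ± 0.19 (adjusted p = 0.017) but passed with neither of these scalings (adjusted p = 0.051 and 0.18). The RefSeq promoter table (GRCm38.p6) holds 3 windows for Slc38a4, each from 250 bases before to 50 after a gene start. The one at chr15:97031164-97031463 on the minus strand is shown because it alone of the 3 holds a searched motif, the TATA box letters TATAAA in capitals, 208 bases before the start:
Slc38a4: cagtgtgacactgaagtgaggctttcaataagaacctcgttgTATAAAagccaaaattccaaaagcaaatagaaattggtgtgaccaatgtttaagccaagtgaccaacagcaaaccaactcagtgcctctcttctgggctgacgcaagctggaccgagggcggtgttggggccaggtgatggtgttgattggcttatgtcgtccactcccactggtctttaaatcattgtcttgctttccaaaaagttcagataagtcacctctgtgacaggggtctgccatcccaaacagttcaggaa

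The other 3 tested Slc38 members did not pass. Slc38a2, SNAT2, the system A carrier that many cells raise when amino acids are short, had signals of 1233, 1441 and 1915 in BPD and 1110, 1235 and 1375 in GFP livers, and the ranges overlapped. Its log2 difference was -0.02 ± 0.20 and turned to 0.28 and 0.27 under the deposited and quantile scalings, without passing. Slc38a1, SNAT1, read 251, 239 and 249 in BPD and 119, 202 and 219 in GFP livers, with a log2 difference of 0.16 ± 0.21 (adjusted p = 0.59). Slc38a10, a less studied member, had 5 tested probe sets with differences from -0.60 to 0.01, and its brightest one was at -0.49 ± 0.18 (adjusted p = 0.065). One of the 5 was called (-0.60 ± 0.16, adjusted p = 0.020). Slc38a1, Slc38a2 and Slc38a4 are next to each other among the protein-coding genes of 1 chromosome, so neighbours on the chromosome included a member that fell and 2 that did not pass.

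**Figure D2:**
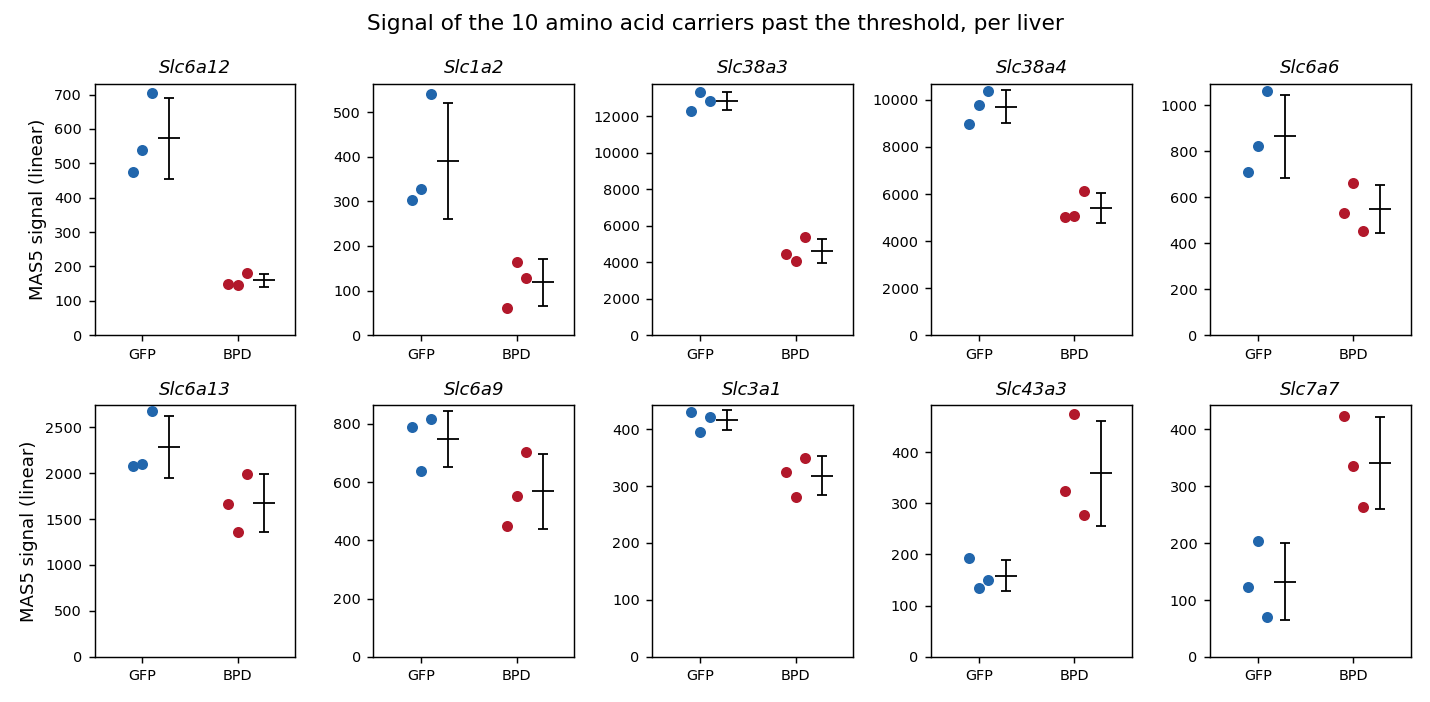
MAS5 signal of the 10 carriers past the threshold in each liver (points; blue GFP, red BPD), with the mean and SD of 3 mice beside them. In Slc38a3 the BPD livers sit between 4079 and 5367 and the GFP livers between 12303 and 13305, and only Slc6a9 has overlapping signals.

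Within an array the ratio of 2 members is the same after centring and under the deposited scaling, though quantile normalization changes it, and 4 pairs of related carriers could be compared in this way. The log2 ratio of Slc38a2 to Slc38a4 was -2.01, -1.81 and -1.67 in BPD and -3.00, -2.97 and -2.90 in GFP livers, a difference of 1.13. The ratio of Slc38a1 to Slc38a3 was -4.06, -4.00 and -4.34 in BPD and -6.51, -5.93 and -5.77 in GFP livers, a difference of 1.94. In both pairs the groups did not overlap. The ratios were not computed under quantile normalization, which put the single genes at 0.27 for Slc38a2, -0.58 for Slc38a4, 0.17 for Slc38a1 and -1.19 for Slc38a3. The ratio of Slc1a4 to Slc1a2 was higher by 2.72 in BPD livers, without overlap, but the GFP mean of Slc1a4, 74.4, lies under the 98.8 of the filter, so that pair could be compared only because Slc1a4 was brighter in BPD livers. That of Slc3a2 to Slc3a1 was higher by 0.62, with overlap, BPD 36 at 0.92 lying below GFP 31 at 1.04. The exact 2-sided permutation p was 0.1 for the first 3 pairs, the smallest that 3 against 3 mice allow, and 0.2 for the last (0.13 and 0.2 after Benjamini-Hochberg adjustment over the 4 pairs).

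**Figure D3:**
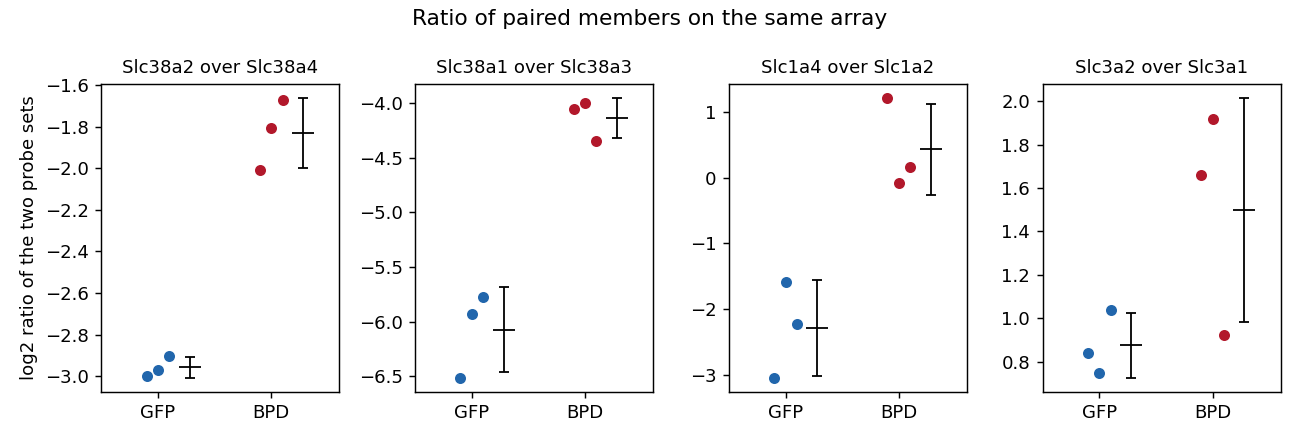
Log2 ratio of paired carriers on the same array, after the constant was added, in each liver (points) with the mean and SD of 3 mice per group. For Slc38a2 over Slc38a4 the BPD livers lie between -2.01 and -1.67 and the GFP livers between -3.00 and -2.90.

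Of the 15 Slc6 genes 6 were tested, of which 4 fell (beside 22.2% of all genes) and 2 did not pass. Under the deposited scaling 2 fell (beside 11.1% of all genes) and 1 rose (beside 17.2%). With quantile normalization 2 fell (beside 13.0%). Slc6a12, the betaine and GABA carrier BGT1, had signals of 150, 145 and 182 in BPD and 475, 539 and 704 in GFP livers. No BPD liver came near the lowest GFP liver. Slc6a12 fell by 2.04 ± 0.20 (limma adjusted p = 3.9e-04), from a mean of 573 ± 118 to 159 ± 20.1 (SD, n = 3 each).

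Slc6a13, GAT2, which carries GABA, betaine and taurine and lies next to Slc6a12 on the chromosome, had signals of 1666, 1360 and 1992 in BPD and 2076, 2104 and 2672 in GFP livers. The groups did not overlap, though BPD 36 lay close to GFP 22. Its log2 difference was -0.75 ± 0.21 (adjusted p = 0.027), and it passed with neither of the other scalings (adjusted p = 0.090 and 0.13). Leaving out BPD mouse 23 or 28 or GFP mouse 22 or 31 also ended the call (adjusted p from 0.055 to 0.101).

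Slc6a6, the taurine carrier, had signals of 530, 662 and 453 in BPD and 709, 823 and 1063 in GFP livers, without overlap. It fell by 0.94 ± 0.19 (adjusted p = 0.0073). The glycine carrier Slc6a9 had signals of 448, 554 and 703 in BPD and 789, 639 and 815 in GFP livers, and BPD 36 lay above GFP 29, though not after centring. Its difference was -0.70 ± 0.21 (adjusted p = 0.036), and its other probe set was at -0.79 ± 0.24 (adjusted p = 0.038). The call of Slc6a9 was lost with both other scalings (adjusted p = 0.16 and 0.080), without the filter (0.054) and without BPD mouse 23 or 28 or GFP mouse 22 or 31 (0.098 to 0.12).

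The creatine carrier Slc6a8 differed from these, with signals of 434, 410 and 267 in BPD and 221, 163 and 196 in GFP livers. All BPD signals lay above all GFP signals, but after centring the groups overlapped on its brightest probe set and the log2 difference of 0.56 ± 0.23 did not pass (adjusted p = 0.089). It passed with the deposited scaling (0.86, adjusted p = 0.021). Slc6a17, a carrier of synaptic vesicles, was at 0.05 ± 0.32. The other 9 Slc6a genes were too dim to test.

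Promoter windows of both Slc6a13 (3 windows) and Slc6a9 (3 windows) held the letters TGACNNNGC, the core of the antioxidant response element, on either strand. They are shown as the fallen Slc6 members with a searched motif, in capitals. The window of Slc6a13 is chr6:121300038-121300337 on the plus strand, with the match on the opposite strand, 82 bases before the start, and that of Slc6a9 is chr4:117849100-117849399 on the plus strand, with the match 46 bases before the start:
Slc6a13: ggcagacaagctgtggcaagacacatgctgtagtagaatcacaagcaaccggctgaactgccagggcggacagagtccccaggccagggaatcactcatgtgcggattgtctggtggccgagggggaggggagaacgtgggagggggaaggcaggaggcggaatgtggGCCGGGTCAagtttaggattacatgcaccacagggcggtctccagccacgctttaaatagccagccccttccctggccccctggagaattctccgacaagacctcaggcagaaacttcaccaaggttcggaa
Slc6a9: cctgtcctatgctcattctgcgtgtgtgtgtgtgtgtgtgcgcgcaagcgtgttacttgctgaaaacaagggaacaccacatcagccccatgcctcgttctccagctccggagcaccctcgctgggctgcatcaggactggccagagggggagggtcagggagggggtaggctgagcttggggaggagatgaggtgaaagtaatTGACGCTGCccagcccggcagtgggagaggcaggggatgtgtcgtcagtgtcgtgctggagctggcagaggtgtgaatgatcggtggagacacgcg

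In the Slc1 family 1 of 3 tested genes fell (beside 22.2% of all genes), the glutamate carrier Slc1a2, and the neutral carriers Slc1a4 and Slc1a5 did not pass. Slc1a2, GLT-1, by which hepatocytes around the central vein take up glutamate for glutamine synthesis, had signals of 60.4, 165 and 129 in BPD and 303, 328 and 540 in GFP livers. The groups were well apart, with BPD 23 the lowest and GFP 31 the highest liver. Slc1a2 fell by 1.94 ± 0.32 (limma adjusted p = 0.0027), and the difference was -2.15 to -1.61 with any mouse left out.

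Slc1a5, ASCT2, the glutamine exchanger of dividing cells, had signals of 225, 216 and 175 in BPD and 124, 117 and 82.6 in GFP livers. The groups did not overlap, yet its log2 difference of 0.54 ± 0.21 did not pass (adjusted p = 0.085). It passed with the deposited scaling (0.84, adjusted p = 0.022). Slc1a4, ASCT1, a carrier of serine, alanine and cysteine, had signals of 162, 154 and 146 in BPD and 22.4, 98.7 and 102 in GFP livers, and its difference of 0.78 ± 0.38 did not pass (adjusted p = 0.15). Without GFP mouse 22 it was 0.29 (adjusted p = 0.36). As its GFP mean lies under the filter, Slc1a4 was tested only because of its BPD signals. Slc1a1, Slc1a3 and Slc1a6 were too dim to test.

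Of the heavy chains, Slc3a2 (4F2hc, also CD98), the partner of most light chains, had signals of 1060, 1109 and 677 in BPD and 785, 674 and 883 in GFP livers. BPD 36 lay among the GFP livers, and the log2 difference was -0.05 ± 0.22 (adjusted p = 0.88), turning to 0.25 and 0.17 without passing under the deposited and quantile scalings. Slc3a1 (rBAT), the partner of the cystine carrier Slc7a9, had signals of 325, 281 and 349 in BPD and 430, 395 and 421 in GFP livers, without overlap. Its difference was -0.67 ± 0.18 (adjusted p = 0.021). It was not called with the deposited scaling (adjusted p = 0.090), nor when BPD mouse 28 or GFP mouse 22 or 31 was left out (0.053 to 0.092). Its single promoter window, chr17:85028097-85028396 on the plus strand, was the only one among the members to hold the HNF4 letters CAAAGTCCA, 39 bases before the start, and it also held TATAAA 124 and 18 bases before the start, the latter overlapping a match on the opposite strand at 20 bases:
Slc3a1: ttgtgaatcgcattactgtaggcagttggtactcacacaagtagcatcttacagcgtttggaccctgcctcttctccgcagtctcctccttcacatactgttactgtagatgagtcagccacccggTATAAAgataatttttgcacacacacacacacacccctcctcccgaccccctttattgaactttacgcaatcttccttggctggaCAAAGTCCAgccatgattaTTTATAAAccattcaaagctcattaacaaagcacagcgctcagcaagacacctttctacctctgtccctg

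Of the light chains, Slc7a7 (y+LAT1), which exports arginine and lysine in exchange for neutral amino acids and is known from macrophages as well as epithelia, had signals of 424, 335 and 264 in BPD and 123, 204 and 70.1 in GFP livers. Every BPD liver lay above every GFP liver, with a wide spread in both groups. Slc7a7 rose by 1.04 ± 0.31 on the log2 scale (limma adjusted p = 0.032), and by 1.35 and 1.08 under the deposited and quantile scalings. The call was lost without the filter (adjusted p = 0.061) and without BPD mouse 23 or 28 or GFP mouse 22 or 31 (0.068 to 0.103). Slc7a8 (LAT2), a carrier of large and small neutral amino acids, had signals of 237, 284 and 197 in BPD and 85.2, 178 and 56.8 in GFP livers. Its difference of 0.86 ± 0.30 did not pass (adjusted p = 0.059), though it did with the deposited scaling (1.16, adjusted p = 0.039).

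Promoter windows of Slc7a7 number 5 in the table. The one at chr14:54417895-54418194 on the minus strand is shown as that of the risen carrier with the most matches, 2 of the letters TGATGNAAN, the core of the amino acid response element, at 141 and 1 bases before the start, in capitals:
Slc7a7: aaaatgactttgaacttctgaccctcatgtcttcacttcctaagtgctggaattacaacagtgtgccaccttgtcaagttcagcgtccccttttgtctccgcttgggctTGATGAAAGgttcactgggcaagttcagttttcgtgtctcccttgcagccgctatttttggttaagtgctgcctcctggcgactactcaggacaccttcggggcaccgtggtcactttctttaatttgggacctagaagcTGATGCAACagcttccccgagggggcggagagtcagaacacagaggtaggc

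The arginine carrier of the liver, Slc7a2 (CAT2), had signals of 553, 408 and 507 in BPD and 717, 494 and 674 in GFP livers on its brightest probe set. The groups overlapped, and the differences of its 3 tested probe sets, -0.65 ± 0.23, -0.37 ± 0.22 and -0.33 ± 0.21, did not pass (adjusted p = 0.062, 0.22 and 0.25). Slc7a4, for which no transport is established, was at -0.24 ± 0.19 (adjusted p = 0.37) with signals of 276, 423 and 411 in BPD and 274, 393 and 389 in GFP livers. The other arginine carrier, Slc7a1 (CAT1), was dim, at 5.85, 76.6 and 81.2 in BPD and 74.6, 61.8 and 82.4 in GFP livers. So were the light chains Slc7a5 (LAT1), at 30.7, 86.3 and 96.4 against 26.1, 24.3 and 45.4, and Slc7a11 (xCT, the cystine and glutamate exchanger), at 28.8, 30.1 and 51.3 against 14.2, 13.3 and 43.6. Slc7a10 read 67.4, 129 and 103 in BPD and 45.9, 118 and 122 in GFP livers. The brighter probe set of Slc7a6 read 79.7, 102 and 73.4 in BPD and 19.4, 79.3 and 32.2 in GFP livers. In each of these 5 dim genes the groups overlapped.

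Slc43a3, which belongs to the family of the neutral amino acid carriers LAT3 and LAT4 but carries purine bases, had signals of 324, 474 and 277 in BPD and 192, 134 and 150 in GFP livers. The groups did not overlap, with BPD 28 well above the others. Slc43a3 rose by 0.78 ± 0.23 (limma adjusted p = 0.031), and by 1.08 with the deposited scaling. The call was lost without the filter (adjusted p = 0.059) and without BPD mouse 23 or 28 or GFP mouse 29 or 31 (0.065 to 0.13).

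Some markers of other cells were also higher in BPD livers. Their counts after centring stand beside the 8.75% of all genes that rose and the 22.2% that fell. Of 14 listed macrophage and Kupffer cell markers 10 were tested, none of them at 0, and 8 rose. The 2 that did not pass were Csf1r (1.19 ± 0.46, limma adjusted p = 0.080) and Clec4f, which lay the other way (-0.58 ± 0.58, adjusted p = 0.47). The summed signal of the 10 was 33973, 31579 and 15113 in BPD livers 23, 28 and 36 and 6975, 13081 and 3999 in GFP livers 22, 29 and 31. The order of the 6 livers by this sum, from GFP 31, GFP 22 and GFP 29 through BPD 36 and BPD 28 to BPD 23, was also their order by the signal of Slc7a7. By Slc7a8 it differed only in that BPD 28 lay above BPD 23. By Slc43a3 the order was another, with GFP 29, which had the highest macrophage sum of its group, the lowest of all livers and BPD 28 above BPD 23. The sums of 9 stellate cell markers (3 of 9 rose) were 15902, 14489 and 4221 in BPD and 2591, 2984 and 2286 in GFP livers. Their order was that of Slc7a7 too, so this order was not particular to the macrophage markers. The sums of 8 endothelial markers were 2521 to 3950 in BPD and 2330 to 3650 in GFP livers (1 rose, 1 fell). Among 5 tested of 8 neutrophil markers 4 rose, and among 4 tested of 12 lymphocyte markers 1 rose. The neutrophil sums were 6572, 7668 and 1644 in BPD and 407, 618 and 401 in GFP livers, which is the order of Slc7a8. The 1 tested cholangiocyte marker rose, 2 of 5 tested erythroid markers rose and 1 fell, the 1 tested kidney or gut marker did not pass, and 1 of 2 tested brain markers fell. The brain marker that fell was Syt1. Its BPD mean of 103 before centring lay near the filter, so its GFP signals may alone have carried it past. The GFP means of the neutrophil markers S100a8, S100a9 and Ltf (85.6, 61.5 and 64.2), the lymphocyte marker Cd3g (64.9), the stellate marker Col1a1 (17.6), the cholangiocyte marker Krt23 (50.6) and the erythroid markers Slc4a1 and Ermap (69.9 and 59.5) lay under the filter, so these 8 of the risen markers were tested only because of their BPD signals. Beside the carriers that were lower, 14 of 14 hepatocyte markers fell after centring (22.2% of all genes). Of the same 14, 9 fell under the deposited (11.1% of all genes) and 5 under the quantile scaling (13.0%). The part of these cells in the carriers' differences was not tested.

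**Figure D4:**
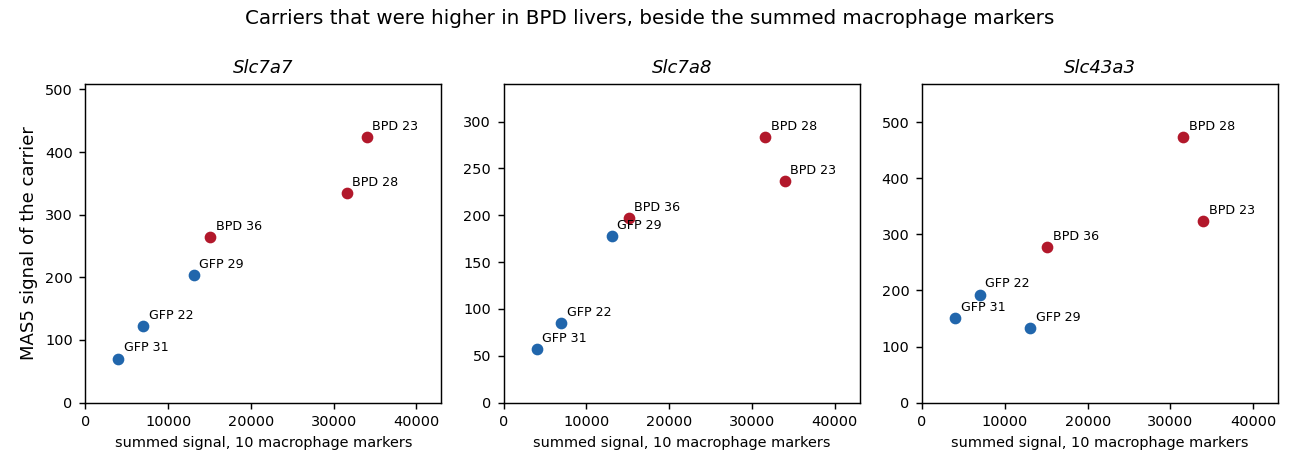
Signal of Slc7a7, Slc7a8 and Slc43a3 in each liver against the summed signal of 10 macrophage markers (blue GFP, red BPD; MAS5 signal on linear axes from 0). Slc7a7 runs from 70.1 in GFP 31 to 424 in BPD 23 in the same order as the marker sum. The sum of the stellate cell markers, not drawn, has that order too.

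Motifs were searched on both strands in 47 promoter windows of the 28 member genes in the table, and in all 32851 windows of the same length. TGATGNAAN was found in 4 of the 47 windows (Slc1a4, Slc7a7 and Slc7a11), beside 3.95% of all windows. TGACNNNGC was found in 7 windows (Slc38a2, Slc6a13, Slc6a9, Slc7a1 and Slc7a6), beside 12.4% of all, CAAAGTCCA in 1 (Slc3a1), beside 0.475%, and TATAAA in 4 (Slc1a3, Slc38a4, Slc3a1 and Slc7a1), beside 13.6%. ATTTCATCA, a form of the ATF4 composite site (0.231% of all windows), the HNF1 motif (0.399%) and GAGGAAGT, the PU.1 core (3.20%), were in no member window. A match describes letters only. The table has no window for 15 member genes, among them Slc38a3, Slc6a6, Slc43a3 and Slc1a5.

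Other genes of amino acid handling were taken from 4 lists. Their counts after centring are read beside the 8.75% of all genes that rose and the 22.2% that fell. These shares were 17.2% and 11.1% under the deposited scaling and 12.7% and 13.0% under the quantile scaling. Of 7 tested genes for making glutathione from cystine and cysteine, 3 fell and 1 rose. Cystathionine gamma-lyase (Cth), which makes cysteine, was at -1.42 ± 0.20, cystathionine beta-synthase (Cbs) at -1.28 ± 0.19 and the modifier subunit of glutamate-cysteine ligase (Gclm) at -1.15 ± 0.17, whereas Nfe2l2, which encodes the regulator NRF2, rose by 1.30 ± 0.19 (limma adjusted p = 0.0016, 0.0020, 0.0019 and 0.0018). The count of fallen genes was 3 under each of the 3 scalings, and that of risen genes was 2 under both others. The added gene was glutathione synthetase (Gss), at 0.37 ± 0.14 after centring (adjusted p = 0.081), 0.67 under the deposited scaling (adjusted p = 0.0065) and 0.63 under the quantile scaling (adjusted p = 0.0099). Gclc did not pass (-0.55 ± 0.21).

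Of 16 tested genes of the response to amino acid shortage, 2 rose and 2 fell. Atf3 rose by 1.53 ± 0.29, from a GFP mean of 71.0 that lies under the level of the filter, and Ddit4 by 0.73 ± 0.19, whereas Nars, the asparaginyl-tRNA synthetase, was at -0.89 ± 0.19 and Gpt2, an alanine aminotransferase, at -0.71 ± 0.23 (adjusted p = 0.0054, 0.019, 0.0081 and 0.048). Atf4 itself was at -0.14 ± 0.18, asparagine synthetase (Asns) at -0.28 ± 0.35 and Trib3 at 0.16 ± 0.21, none past the threshold. With the deposited scaling 6 of these genes rose (beside 17.2% of all genes) and 1 fell (beside 11.1%). Of 16 tested genes by which mTORC1 senses amino acids, 5 fell and 11 did not pass, with the inhibitor Deptor at -0.96 ± 0.20, Tsc1 at -0.95 ± 0.24, Lamtor2 at -0.57 ± 0.16 and Nprl3 at -0.55 ± 0.16 (adjusted p = 0.0078, 0.016, 0.027 and 0.031). Falls numbered 1 under the deposited (beside 11.1% of all genes) and 2 under the quantile scaling (beside 13.0%). Of 4 tested carriers and carrier partners outside the families, the lysosomal histidine and peptide carrier Slc15a3 rose by 2.61 ± 0.40 (adjusted p = 0.0022) from a GFP mean of 80.6, under the level of the filter. The lysosomal cystine carrier Ctns fell by 0.91 ± 0.24 (adjusted p = 0.019, and 0.096 under the deposited scaling). Its BPD mean of 109 before centring lay near the filter, so its GFP signals may alone have carried it past.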

How the data were processed

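Total RNA of 6 livers, 1 mouse per array, was measured as biotin-labelled RNA. The deposited table holds 1 intensity per probe set, made with MAS5 per the submitters' processing notes. The sources used here give neither its version nor its target. The mean signal, trimmed by 2% at each end, was 499.9 on every array, so the arrays had been scaled to a common level. Of 22690 probe sets, 64 controls were left out. Probe sets were named by the platform annotation supplied with the table (20380 with 1 symbol, 691 with several, 1555 unnamed here). All 67 member probe sets matched the GRCm38.p6 gene table, with 0 symbols changed.

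The constant added before log2 was 10% of the median signal. Since array medians differed 1.45-fold, over a tolerance of 25%, log2 values were centred on each array's median. Probe sets with a mean above the 40th percentile, a signal of 98.8, were tested (30 of 67 members) with limma 3.58.1 in R 4.3.3 (lmFit, eBayes with trend, 2-sided, Benjamini-Hochberg, threshold 0.05), and the code was tested on simulated data. A gene was represented by its tested probe set with the highest mean. Nothing pairs the mice, and precision is limited by the number of arrays. Members, lists and markers were chosen with earlier results of these data known, and the HNF4, HNF1, PU.1 and TATA motifs after the carriers' values were seen. Members past the threshold and a fixed set of liver carriers are given per mouse. Alternatives were other scalings, constants, filters, moderation, weights, probe sets and each mouse left out.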

Additional observations from a re-analysis of the deposited data

How the results depend on the processing

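With the deposited scaling 5 member genes were higher and 5 lower (6 and 5 probe sets), beside 2 and 8 genes (2 and 11 probe sets) as reported. With quantile normalization 6 probe sets were lower. Without the filter 1 gene and 1 probe set were higher, the dim Slc38a5, and neither Slc7a7 nor Slc43a3 was called. Without the probe sets that can match several transcripts 1 gene and 1 probe set were higher, Slc43a3. Slc7a7, Slc1a2 and Slc6a6 had no other tested probe set and were not tested there. With 1 mouse left out, 0 to 3 genes and 0 to 3 probe sets were higher, and 5 to 9 genes and 5 to 13 probe sets lower (limma). For these fits, and those without the filter or with fewer probe sets, the share of all genes called was not counted. Changes in these counts are therefore not read as particular to the members. The counts of 0 higher came when BPD mouse 23 or 28 or GFP mouse 31 was left out, where 2 to 4 genes had an upward unadjusted p under 0.05. With 1 mouse left out the relative medians were 0.48 to 0.86 for Slc1a and 0.40 to 0.75 for Slc7a.

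The relative median of Slc1a was 0.61 with quantile normalization, 0.13 without the filter (6 genes) and -1.70 with the filter at the median (1 gene left). For Slc7a it was -0.012 without the filter (13 genes), 0.0043 with the filter at the median and -0.0071 without the probe sets that can match several transcripts. For Slc38a it was -0.051 with quantile normalization and -0.029 without the filter, and for Slc6a -0.20 without the filter (15 genes). Where genes entered or left, the members differ. The cause was otherwise not tested.

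Sign changes were seen only in members that did not pass. Slc38a2 was at 0.28 with the deposited scaling, 0.27 with quantile normalization and 0.0017 with the larger constant, and Slc3a2 at 0.25, 0.17 and, with array weights, 0.043. Slc7a4 was at 0.063 with the deposited scaling. With 1 mouse left out the range was -0.21 to 0.091 for Slc38a2, -0.20 to 0.15 for Slc3a2, -0.045 to 0.32 for Slc38a1 and -0.23 to 0.32 for Slc6a17. No paired analysis was possible because the groups share no mouse number. Signals near the added constant of 16.3 have no reliable fold.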

Other observations

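The 22 member genes without a tested probe set include the brain carriers Slc6a2, Slc6a3, Slc6a4, Slc6a5 and Slc6a15, the intestinal and renal carriers Slc6a14, Slc6a18, Slc6a20a, Slc6a20b, Slc7a9, Slc7a12 and Slc7a13, and Slc7a3. Of the 37 member probe sets under the filter, 31 lay below its signal of 98.8 on all 6 arrays. A fit without the filter called 3 of the 37 (limma adjusted p under 0.05), 1 higher and 2 lower, named here after their values were seen. The share of all dim probe sets called in that fit was not counted, so this count is not read as particular to the members. Slc38a5 (SN2), a glutamine carrier of the system N type, had signals of 34.4, 58.3 and 62.8 in BPD and 11.3, 11.1 and 7.78 in GFP livers, so every GFP value lay below the added constant. Its difference was 1.04 (adjusted p = 0.022), and its size is uncertain for that reason. The probe sets that were lower were a dim one of Slc38a10 (-1.26, adjusted p = 0.038) and one of Slc7a13 (-1.18, adjusted p = 0.048), whose other probe set was at -0.32.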
